A study of Drosophila melanogaster with 8 samples.

Results

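The proteasome subunit genes of Drosophila melanogaster described here are the genes of the 20S core named Prosalpha or Prosbeta with a single digit and all genes of the 19S cap named Rpn or Rpt with a number. They were picked by a rule on names from the deposited table of 12051 genes, which holds 36 of them, 13 of the 20S core and 23 of the 19S cap. The set was chosen with earlier results of these data known. Of the 19S genes, 5 have names ending in R and are duplicates known for expression in the testis, whereas the testis duplicates of the 20S core are not counted as members. Prosalpha1 was not analysed here. All 36 members passed the filter of a mean of at least 10 normalized reads. RNA came from immunoprecipitates of ribosomes out of testis extract of wild-type flies aged day 2 to day 7, made with an antibody to eRpL22 or to its paralogue eRpL22-like, and both pulldowns share that genotype and tissue. Values were used from 3 libraries of the first antibody and 4 of the second, and replicate 4 of the eRpL22 group was not analysed here. The samples include neither input RNA nor a mock precipitate, so RNA on ribosomes and RNA that both precipitates hold as background cannot be told apart. The labels do not say that replicates were separate preparations of flies, so p-values reflect only how far these 7 libraries spread, which may be technical.

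The proteasome degrades proteins marked with ubiquitin chains. Its 20S core is a stack of rings in which outer alpha subunits gate the entrance and inner beta subunits hold the proteolytic sites. The 19S cap has a base, whose Rpt ATPases unfold the substrate and thread it into the core, and a lid, which removes the ubiquitin. Drosophila is known for duplicates of many proteasome genes that are expressed in the male germline, and proteasome activity is needed for sperm development.

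The libraries held 15971685 to 26346787 reads recovered over the listed genes. Germline markers (8 genes, among them Mst87F, dj and vas) took 1.31% to 1.40% of the reads with eRpL22 and 1.10% to 1.30% with eRpL22-like, without overlap. The gap ran only from 1.299% to 1.309%. This share is a sum led by the most abundant markers, whose highest mean was 122956 normalized reads beside a median of 791. Single markers differed in direction, with 2 positive and 6 negative log2 fold changes, from -2.61 to 3.11. Cyst and hub cell markers took 0.00441% to 0.0149% of the reads over all libraries, muscle markers 0.00664% to 0.0762% and accessory gland markers 0.112% to 0.203%, each with overlapping values between pulldowns. The 5 accessory gland genes are markers of a neighbouring organ, and their RNA was present in every library. In bulk RNA, fewer cells of a type and less RNA per cell cannot be told apart. Values are the authors' normalized reads, which are not corrected for transcript length, so levels are compared between libraries and not between genes. Replicate values below run in the order 1, 2, 3 for eRpL22 and 1, 2, 3, 4 for eRpL22-like. Log2 fold changes are eRpL22-like over eRpL22, from limma on log2(normalized reads + 1) unless credited to the authors' deposited table.

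Transcripts of the proteasome subunits were recovered with both paralogues, and none of the 36 passed the test between them. Each member had reads in all 7 libraries. With limma and a Benjamini-Hochberg adjustment over all 11174 genes tested, 0 of 36 members passed 0.05, where 0% of all genes did, and the smallest adjusted p among members was 0.945. At an unadjusted limma p under 0.05 stood 2 members, Rpt5 and Rpn13, both with lower means in the eRpL22-like pulldown, against 4.11% of all genes (2.1% on the lower side). Library values did not overlap between pulldowns for 3 members (5.14% of all genes), Prosbeta3 on the higher side with eRpL22-like (2.38% of all genes) and Rpt5 and Rpn6 on the lower side (2.76% of all genes). edgeR on the recovered whole reads called 0 members and 0 of 9516 genes (0%), with 2 members, Prosbeta4 and Rpn10, and 3.96% of genes at an unadjusted p under 0.05. Both were higher with eRpL22-like, as were 2.44% of genes. DESeq2 on those reads called 0 members and 1.98% of 8688 genes. Its unadjusted p was under 0.05 for 3 members and 9.78% of genes, with Prosbeta4 and Rpn10 on the higher side (6.2% of genes) and Rpn6 on the lower (3.58% of genes). The authors' deposited table called 0 members and 0.174% of its genes. The same 3 members had an unadjusted p under 0.05 in the authors' deposited table, against 5.53% of all genes.

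**Figure D1:**
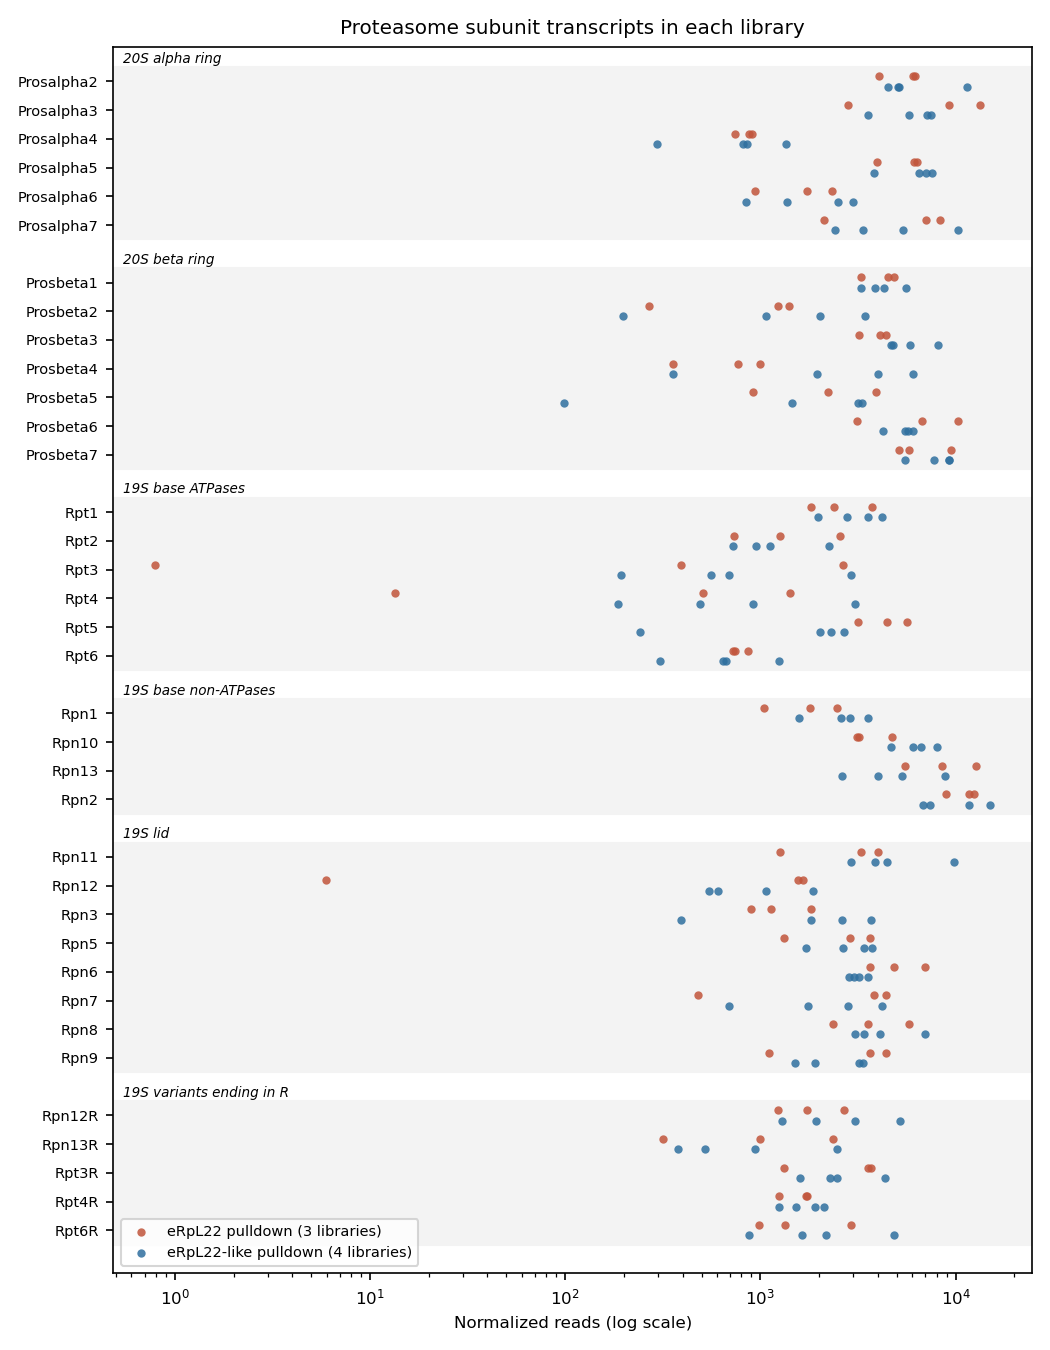
Normalized reads (horizontal axis, log scale) of each of the 36 members in each library, with 3 eRpL22 libraries in red and 4 eRpL22-like libraries in blue, grouped by subcomplex. The colours overlap for every member but Prosbeta3, Rpt5 and Rpn6, and single libraries lie far to the left for Rpt3, Rpt4 and Rpn12.

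Estimated differences were under 2-fold for 31 of the 36 members, or 86.1%, against 50.4% of all genes tested and 77.8% of the 3950 tested genes whose means lay in the members' range of 742 to 10590 normalized reads. Within that range the 3950 genes were matched no further, and their median mean was 1795, below the members' 2737. The 95% interval of the difference lay within 2-fold either way for 6 members, or 16.7%, against 5.31% of all genes tested and 9.09% of the genes in that range. These 6 were Prosalpha2, Prosalpha5, Prosbeta1, Prosbeta6, Prosbeta7 and Rpn2. For the other members the interval reached past 2-fold in at least 1 direction. The median log2 fold change was 0.16 over the members, with 21 positive and 15 negative, beside -0.03 over all genes tested, of which 48.8% were positive. It was 0.14 for the 13 genes of the 20S core and 0.19 for the 18 genes of the 19S cap without the R variants. The 20S median was -0.04 without eRpL22-like replicate 1, and the 19S median was -0.22 without eRpL22 replicate 1.

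**Figure D2:**
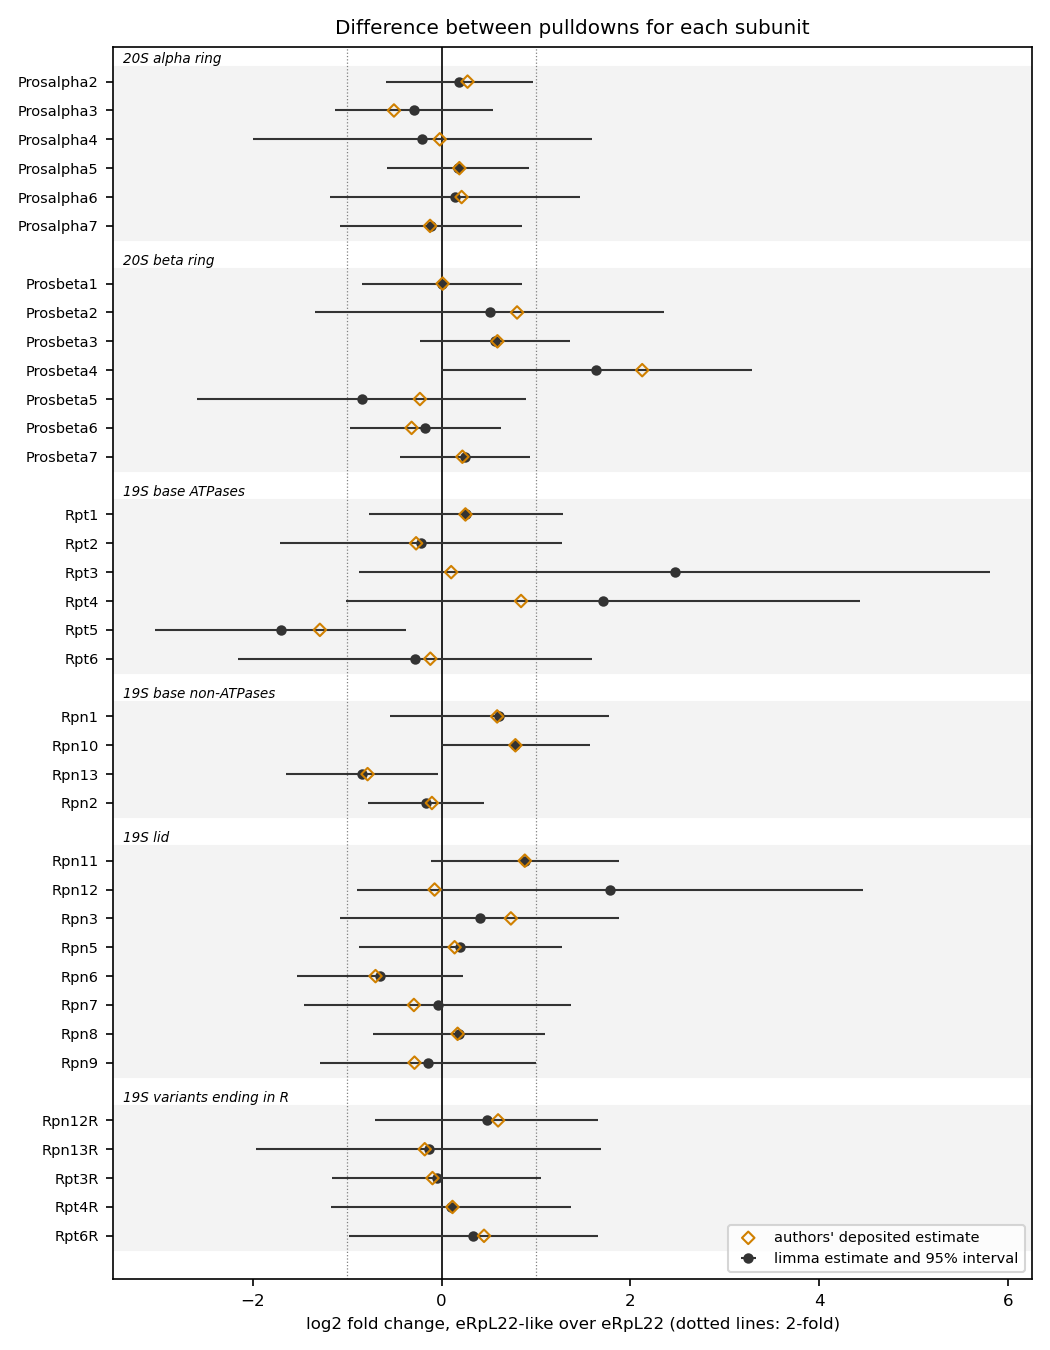
Log2 fold change (horizontal axis, positive where eRpL22-like is higher) for each member by subcomplex, as the limma estimate with its 95% interval (black) and the authors' deposited estimate (open diamond), with dotted lines at 2-fold. Intervals of Rpt5 and Rpn13 leave out 0, and the estimates part most for Rpt3, at 2.47 and 0.10, and for Rpn12, at 1.78 and -0.07.

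The alpha ring genes, which encode the gated entrance of the core, had estimated differences within 0.3 log2 units of 0, and none of the 6 had an unadjusted limma p under 0.05. Their log2 fold changes ran from -0.29 for Prosalpha3 to 0.19 for Prosalpha2, with a median of 0.01. Prosalpha3, the alpha subunit with the highest mean, stood at 2824, 9262 and 13414 normalized reads with eRpL22 and at 3559, 7138, 5768 and 7490 with eRpL22-like. The eRpL22 libraries thus held both its lowest and its highest value, and its estimate moved from -0.29 to -0.95 on the log2 scale when eRpL22 replicate 1 was left out, and to 0.17 when eRpL22 replicate 3 was. Prosalpha4, with the lowest mean of the ring, stood at 902, 742 and 876 normalized reads with eRpL22 and at 812, 856, 296 and 1348 with eRpL22-like. Its eRpL22 values lay inside the range of the eRpL22-like values. Prosalpha2 had 6217, 6021 and 4055 normalized reads with eRpL22 and 11514, 4523, 5134 and 5102 with eRpL22-like, where replicate 1 was far above the other libraries. Prosalpha5 ranged from 3837 to 7573 over the 7 libraries, Prosalpha6 from 839 to 2992 and Prosalpha7 from 2113 to 10272, each with overlap between pulldowns.

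Beta ring genes divided by how much their levels varied among libraries. The proteolytic sites of the core lie in the products of Prosbeta1 (caspase-like), Prosbeta2 (trypsin-like) and Prosbeta5 (chymotrypsin-like), and the other beta subunits are structural. Prosbeta1 was the steadiest member within pulldowns, at 4518, 4850 and 3277 normalized reads with eRpL22 and 4280, 3289, 3851 and 5560 with eRpL22-like, a log2 fold change of 0.00 with an SE of 0.42. Its pooled SD within pulldowns, 0.31 on the log2 scale, was the lowest of the 36 members. Prosbeta2, with the lowest mean of the ring, stood at 1399, 1229 and 269 normalized reads with eRpL22 and at 3441, 2011, 197 and 1071 with eRpL22-like. The eRpL22 values lay inside the eRpL22-like range. Prosbeta5 stood at 3931, 2233 and 915 with eRpL22 and at 1460, 3161, 99.0 and 3327 with eRpL22-like, so 1 library was 33.6 times below another of its own pulldown. Leaving out eRpL22-like replicate 3 turned its estimate from -0.85 to 0.31 on the log2 scale. The 3 catalytic genes thus differed in spread, and none had an unadjusted limma p under 0.05 (4.11% of all genes tested).

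Prosbeta4 and Prosbeta3 had higher means with eRpL22-like and did not pass the test. Prosbeta4 stood at 999, 357 and 773 normalized reads with eRpL22 and at 6033, 355, 4026 and 1961 with eRpL22-like. All but 1 of the eRpL22-like libraries lay above every eRpL22 library, while replicate 2 held the lowest value of all 7. The ratio of means was 4.36, the log2 fold change 1.64 with an SE of 0.81, and the unadjusted limma p 0.0514 (adjusted p = 0.945). Leaving out libraries moved this log2 fold change between 1.12, without eRpL22-like replicate 1, and 2.48, without eRpL22-like replicate 2. The authors' deposited table gave Prosbeta4 a log2 fold change of 2.13 with an unadjusted p of 0.00936 and an adjusted p of 0.504. Prosbeta3 stood at 4379, 4099 and 3200 normalized reads with eRpL22 and at 4679, 4790, 8174 and 5810 with eRpL22-like. Its groups did not overlap, but the gap from 4379 to 4679 was smaller than the SD in either pulldown, 616 (n = 3) and 1622 (n = 4). Limma put the log2 fold change at 0.57 with an SE of 0.39 (limma adjusted p = 0.945). Prosbeta7, with the highest mean of the ring, stood at 9533, 5152 and 5753 normalized reads with eRpL22 and at 5493, 7798, 9207 and 9234 with eRpL22-like, with overlap. Prosbeta6 ran from 3133 to 10247 and from 4232 to 6071.

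The ATPase genes of the base varied the most among libraries of the same pulldown. The median over the 6 genes of the pooled SD within pulldowns was 1.04 on the log2 scale, beside 0.74 over all 36 members. These genes also had the lowest median mean of the subcomplexes, 1213 normalized reads beside 2737 over all members. Whether their level accounts for the spread was not tested. Rpt3 stood at 2658, 393 and 0.793 normalized reads with eRpL22 and at 688, 557, 192 and 2924 with eRpL22-like. The value of 0.793 was 1 recovered read in eRpL22 replicate 3, under the floor of 3 reads that a count of 0 allows (2.38 normalized reads there). Rpt4 stood at 13.5, 1420 and 507 with eRpL22 and at 188, 921, 3037 and 492 with eRpL22-like, where the lowest value was 9 recovered reads in eRpL22 replicate 1. For both genes 1 eRpL22 library with almost no reads set the limma estimate. The log2 fold change of Rpt3 was 2.47 with an SE of 1.65 over all libraries and -0.58 without eRpL22 replicate 3. That of Rpt4 was 1.71 with an SE of 1.34 and became -0.25 without eRpL22 replicate 1. Ratios of means were 1.07 for Rpt3 and 1.79 for Rpt4, and the authors' deposited table gave log2 fold changes of 0.10 and 0.84.

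Rpt5, the ATPase whose tail in yeast helps to open the core's gate, had the largest lower estimate among the members. It stood at 3168, 5653 and 4443 normalized reads with eRpL22 and at 2013, 2676, 242 and 2300 with eRpL22-like, without overlap. Its mean with eRpL22, 4421 ± 1243 (SD, n = 3), was 2.45 times the eRpL22-like mean of 1808 ± 1079 (SD, n = 4). Limma gave -1.71 on the log2 scale with an SE of 0.65 and a 95% interval from -3.04 to -0.38 (limma unadjusted p = 0.0133, adjusted p = 0.945). Without eRpL22-like replicate 3, which held the low value of 242, it was -0.89 with an unadjusted limma p of 0.0706, and without eRpL22 replicate 2 the unadjusted limma p was 0.0697. edgeR and DESeq2 gave Rpt5 unadjusted p-values of 0.0643 and 0.0615. Rpt6, with the lowest mean of the ATPases, had close values with eRpL22, at 869, 740 and 724, and spread values with eRpL22-like, at 667, 1248, 307 and 641. The eRpL22 values again lay inside the eRpL22-like range. Rpt1 ran from 1810 to 4206 normalized reads and Rpt2 from 726 to 2546 over the 7 libraries, with overlap between pulldowns.

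Among the other base subunits, log2 fold changes ran from -0.84 for Rpn13 to 0.78 for Rpn10, with Rpn2 at -0.17 and Rpn1 at 0.61, and none passed the test over all genes. Rpn13, a ubiquitin receptor that also holds the deubiquitinase Uch-L5, stood at 8570, 12757 and 5516 normalized reads with eRpL22 and at 4026, 5324, 2616 and 8807 with eRpL22-like. Only replicate 4 of the eRpL22-like libraries lay within the eRpL22 range. Limma estimated a log2 fold change of -0.84, SE 0.40 (limma unadjusted p = 0.0409, adjusted p = 0.945), and leaving out single libraries moved it between -1.15 and -0.54, with an unadjusted limma p of up to 0.259 without eRpL22 replicate 2. Rpn10, also a ubiquitin receptor, stood at 3120, 4739 and 3213 with eRpL22 and at 6617, 4691, 6045 and 8021 with eRpL22-like. Its groups overlapped by 1 library, since 4739 in eRpL22 replicate 2 was just above 4691 in eRpL22-like replicate 2. The ratio of means was 1.72 and the log2 fold change 0.78 with an SE of 0.39 (limma unadjusted p = 0.0518, adjusted p = 0.945), and this estimate stayed between 0.66 and 0.98 when single libraries were left out. In the authors' deposited table Rpn10 had a log2 fold change of 0.78 and an adjusted p of 0.676. The scaffold Rpn2 had the highest mean of the base, at 8887, 11680 and 12506 normalized reads with eRpL22 and 15061, 7421, 11787 and 6790 with eRpL22-like, with a 95% interval of its fold change from 0.582 to 1.37. Rpn1, a scaffold that also binds ubiquitin and has the lowest mean of these 4 genes, stood at 2473, 1787 and 1049 with eRpL22 and at 1579, 2594, 2884 and 3578 with eRpL22-like, and the SE of its log2 fold change was 0.57.

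Lid genes gave 5 positive and 3 negative estimates, with a median of 0.19 and no unadjusted limma p under 0.05 (4.11% of all genes). Rpn6, a scaffold subunit that joins the lid to the alpha ring in yeast, stood at 3629, 4813 and 6963 normalized reads with eRpL22 and at 3551, 3220, 3018 and 2849 with eRpL22-like. These groups did not overlap, with a gap from 3551 to 3629, and the eRpL22-like libraries were close together (CV 9.55%). Its estimated log2 fold change was -0.65, SE 0.43 (limma unadjusted p = 0.139, adjusted p = 0.945) and -0.41 without eRpL22 replicate 3. DESeq2 on the recovered reads gave Rpn6 an unadjusted p of 0.0410 and an adjusted p of 0.447. Rpn11, the metalloprotease that cuts ubiquitin from the substrate and the lid gene with the highest mean, stood at 1263, 3293 and 4004 with eRpL22 and at 9824, 2900, 3856 and 4442 with eRpL22-like. Its higher eRpL22-like mean rested on replicate 1 and on the low eRpL22 replicate 1. Over all libraries the limma estimate was 0.88 on the log2 scale, SE 0.49 (adjusted p = 0.945), and without eRpL22 replicate 1 it was 0.37.

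Rpn12, the lid gene with the lowest mean, stood at 5.98, 1556 and 1659 normalized reads with eRpL22 and at 1855, 1068, 608 and 547 with eRpL22-like. The value of 5.98 was 4 recovered reads in eRpL22 replicate 1, the library that also held the lowest Rpt4 value. Its limma estimate was 1.78 on the log2 scale, SE 1.32, over all libraries and -0.83 without that library. The authors' deposited table gave Rpn12 a log2 fold change of -0.07, the only member whose sign differed from that of limma. Over the 7 libraries Rpn8, the partner of Rpn11, ran from 2347 to 6984 normalized reads and Rpn5 from 1320 to 3711. Rpn9 ran from 1108 to 4381, Rpn3 from 392 to 3708 and Rpn7 from 477 to 4379. All of these overlapped between pulldowns, with log2 fold changes from -0.14 for Rpn9 to 0.40 for Rpn3.

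The 19S R variants were present in every library with no unadjusted limma p under 0.05 (4.11% of all genes tested). None of the 5 fell below 211 recovered reads in a library, whereas 3 of the subunits they are named after fell to 9 or fewer. Rpt3R stood at 1328, 3683 and 3545 normalized reads with eRpL22 and at 4330, 2284, 1597 and 2456 with eRpL22-like. Its lowest value was 888 recovered reads, in eRpL22 replicate 1, whereas Rpt3 went down to 1 read. Rpt4R stood at 1716, 1742 and 1252 with eRpL22 and at 2127, 1245, 1526 and 1902 with eRpL22-like. It was the steadiest of the variants, with a pooled SD within pulldowns of 0.32 on the log2 scale against 2.55 for Rpt4. Rpt6R stood at 988, 2928 and 1330 with eRpL22 and at 879, 1641, 4850 and 2180 with eRpL22-like. Here the variant was the more variable of the pair, at 0.94 against 0.65 for Rpt6, and eRpL22-like replicate 3 held the highest Rpt6R value and the lowest Rpt6 value. Rpn12R stood at 2688, 1238 and 1743 with eRpL22 and at 1288, 3043, 1918 and 5192 with eRpL22-like. Rpn13R, with the lowest mean of the variants, stood at 315, 2347 and 997 with eRpL22 and at 379, 2475, 937 and 518 with eRpL22-like. Log2 fold changes ran from -0.14 for Rpn13R to 0.48 for Rpn12R, and library values overlapped for all 5. The read ratio of Rpt4R to Rpt4 ran from 0.502 to 128 over the libraries and that of Rpn13R to Rpn13 from 0.0368 to 0.465, with overlap between pulldowns in both cases.

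**Figure D3:**
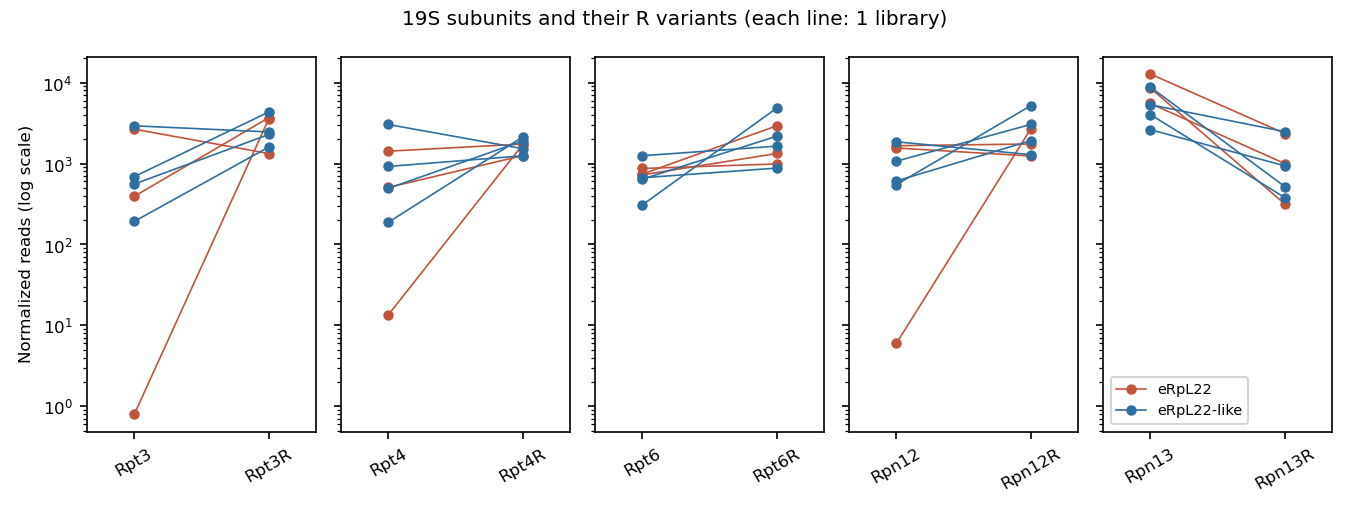
Normalized reads (vertical axis, log scale) of each subunit and of its R variant, joined by a line for each of the 3 eRpL22 (red) and 4 eRpL22-like (blue) libraries. Lines start at 9 or fewer recovered reads for Rpt3, Rpt4 and Rpn12 in 1 eRpL22 library each, and the R variants of these genes stayed at 1238 normalized reads or more in every library.

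Summed over genes, the share of reads taken by each subcomplex overlapped between pulldowns. All 36 members took 0.475%, 0.654% and 0.577% of the reads with eRpL22 and 0.575%, 0.597%, 0.607% and 0.704% with eRpL22-like. The lowest and highest shares were in eRpL22 replicate 1 and eRpL22-like replicate 4. For the 20S genes the share averaged 0.248% ± 0.0158 (SD, n = 3) in the eRpL22 and 0.283% ± 0.0242 (SD, n = 4) in the eRpL22-like libraries. For the 19S genes without R variants it averaged 0.277% ± 0.0653 (SD, n = 3) and 0.284% ± 0.0296 (SD, n = 4). Both shares overlapped between pulldowns. The read ratio of 19S to 20S was 0.930, 1.38 and 1.04 with eRpL22 and 1.05, 1.03, 0.888 and 1.05 with eRpL22-like. Means of 1.12 ± 0.236 (SD, n = 3) and 1.01 ± 0.0790 (SD, n = 4) differed by less than the spread of the eRpL22 libraries, and eRpL22 replicate 2 alone set the higher eRpL22 mean, since the difference of -0.111 became 0.0216 without it. Within the core, the ratio of alpha to beta ring reads was 0.574, 1.39 and 1.62 with eRpL22 and 0.933, 0.880, 0.975 and 0.778 with eRpL22-like. The eRpL22 libraries thus lay on both sides of the eRpL22-like ones.

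**Figure D4:**
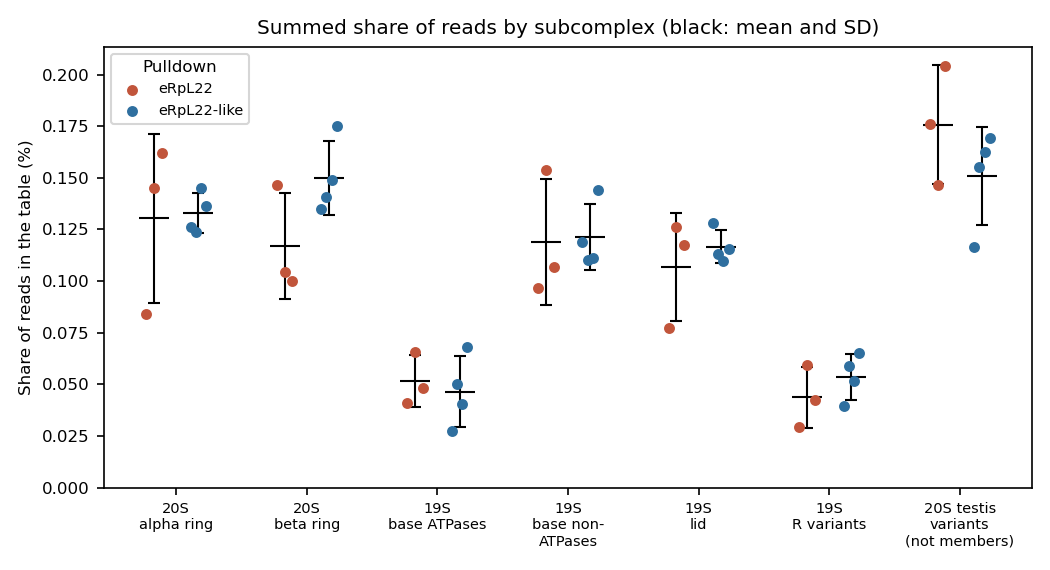
Share of reads in the table (vertical axis, percent) taken by the genes of each subcomplex in each library, with the mean and SD in black for 3 eRpL22 (red) and 4 eRpL22-like (blue) libraries, and the 20S testis duplicates, which are not members, at the right. The shares of every subcomplex overlap between pulldowns.

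The 20S members and their testis duplicates had mean shares that differed in opposite directions between pulldowns, each with overlapping libraries. The share of the 10 duplicates in the table averaged 0.176% ± 0.0289 (SD, n = 3) in the eRpL22 libraries and 0.151% ± 0.0235 (SD, n = 4) in the eRpL22-like ones, with overlap. Their read ratio to the 13 members of the 20S core was 0.763, 0.587 and 0.779 with eRpL22 and 0.447, 0.586, 0.552 and 0.543 with eRpL22-like. The groups did not overlap, by a margin of 0.587 to 0.586, and the ratio of the 19S R variants to the other 19S genes, 0.137 to 0.172 against 0.143 to 0.215, did overlap. The germline marker share, a sum led by its most abundant genes, was also lower with eRpL22-like, without overlap by a margin of 1.309% to 1.299%. Its part in the ratio of the 20S testis duplicates to the 20S members was not tested. Of the duplicates, 8 of 10 were negative on the log2 scale (median -0.18), against 5721 of all 11174 genes tested. With a Benjamini-Hochberg adjustment limma called 0 duplicates and 0% of all genes. Prosalpha4T1 (-2.03) and Prosbeta2R2 (-1.43) had unadjusted limma p-values of 0.0491 and 0.0424. Under 0.05 stood 4.11% of all genes tested (2.1% on the lower side). Both duplicates overlapped between pulldowns, with eRpL22-like values from 104 to 1253 and from 400 to 1941 normalized reads. Among the 10 duplicates, only Prosbeta5R1 had values without overlap, lower with eRpL22-like (2.76% of all genes). The 2 with the highest means, Prosbeta5R1 and Prosalpha6T, had eRpL22 means of 9719 ± 3436 and 8753 ± 2551 normalized reads (SD, n = 3), and eRpL22-like means of 6746 ± 1077 and 7564 ± 1026 (SD, n = 4).

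Members varied between libraries of the same pulldown about as much as genes in the same range of means, whose median mean was lower. The pooled SD within pulldowns had a median of 0.74 over the members on the log2 scale, against 2.29 over all genes tested and 0.81 over the 3950 genes in the members' range of means. A range of over 10-fold among the 3 eRpL22 libraries was found for 3 members (8.33%), Rpt3, Rpt4 and Rpn12, against 51.2% of all genes tested and 12.1% of those in the range. Among the 4 eRpL22-like libraries it was found for 6 members (16.7%), Prosbeta2, Prosbeta4, Prosbeta5, Rpt3, Rpt4 and Rpt5, against 59.5% and 18.4%. Libraries differed in how often they held a member's extreme value. eRpL22 replicate 1 held the lowest value of 10 members (27.8%), against 23% of all genes tested. For eRpL22 replicate 3 it was 8 members (22.2%), against 13.9%. The highest value lay in eRpL22-like replicate 1 for 10 members (27.8%), against 17.4%, and in eRpL22-like replicate 4 for 7 (19.4%), against 11.2%.

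**Figure D5:**
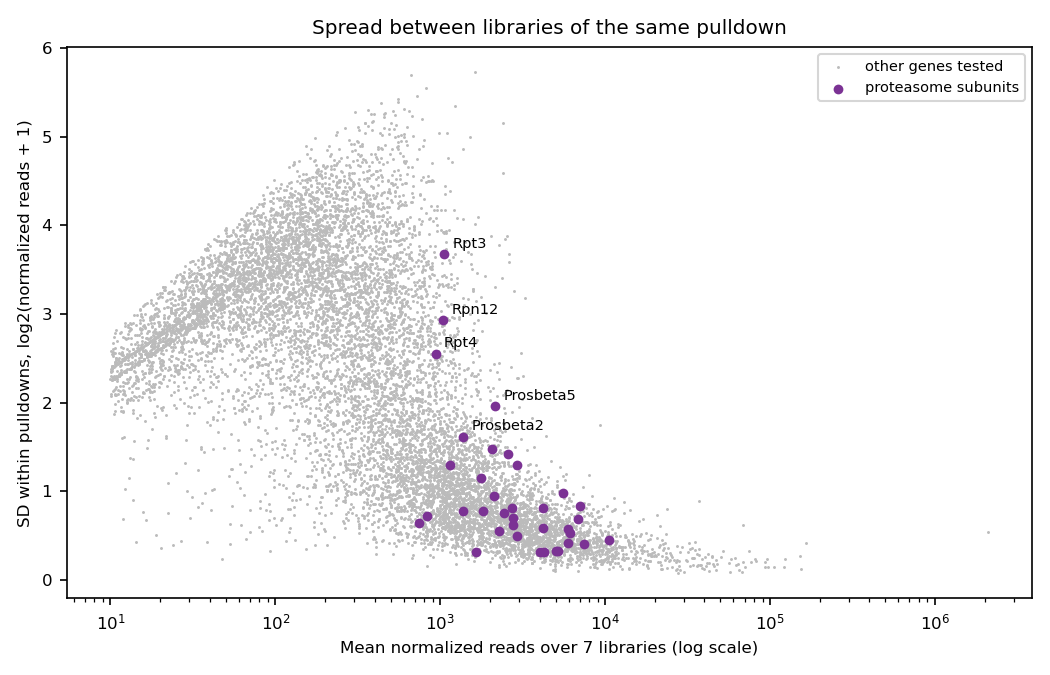
SD within pulldowns on the log2 scale (vertical axis) against the mean of normalized reads over the 7 libraries (horizontal axis, log scale) for the 36 members (purple) and all other genes tested (grey), with members over 1.5 named. Rpt3, Rpn12 and Rpt4 stand highest at 3.67, 2.93 and 2.55, and most members lie within the cloud of genes of their level.

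Other genes of the pathway also gave 0 calls by limma with a Benjamini-Hochberg adjustment, as did all 11174 genes tested (0%). Of 12 genes for activators, inhibitors, assembly and associated proteins, 5 were positive and 7 negative on the log2 scale (median -0.04). Of all genes tested, 48.8% were positive. None of the 12 had an unadjusted limma p under 0.05, against 4.11% of all genes. Only Pomp of the 12 had values without overlap, lower with eRpL22-like (2.76% of all genes). The 2 with the highest means were Uch-L5, the deubiquitinase that binds Rpn13, with means of 11337 ± 2205 (SD, n = 3) and 9266 ± 2636 (SD, n = 4) normalized reads in the eRpL22 and eRpL22-like libraries, and PI31, a regulator of the proteasome, at 8097 ± 2344 and 6842 ± 2207. Of the 5 genes for ubiquitin and its activating enzyme, 1 was positive and the median was -0.06. Only Ubi-p5E of these 5 had values without overlap, lower with eRpL22-like. Ubi-p63E, a polyubiquitin gene, had 27694 ± 610 (SD, n = 3) and 26628 ± 2977 (SD, n = 4) normalized reads, a log2 fold change of -0.06 with an SE of 0.18. RpL40, which encodes ubiquitin fused to a ribosomal protein, stood at 8819 ± 5716 and 5633 ± 463. Of the 5 genes of the Cdc48 unfoldase TER94, its cofactors and the ubiquitin ligase Ufd4, 4 were positive with a median of 0.20. TER94 stood at 4826 ± 1764 (SD, n = 3) and 5375 ± 1090 (SD, n = 4), and Ufd1-like at 3457 ± 1385 and 4236 ± 1657. cnc, which encodes the transcription factor known to control proteasome genes, stood at 3829, 1029 and 696 with eRpL22 and at 1076, 1280, 740 and 948 with eRpL22-like, with overlap and a log2 fold change of -0.50.

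Of the 36 members, 18 overlap the span of another annotated gene in RefSeq's table for the fly genome. Counting was not stated to use strand, so reads from a stretch shared by a pair may not be told apart. Whole spans were compared, without exons or strand, so how many reads this touches is not known. Rpt5 (with Hrd3), Prosbeta3 (with CG11980), Rpn6 (with ave) and Rpt4 (with wuho) are among these 18. Rpn10, Rpn13, Rpt3, Rpn11, Rpn12 and Rpt4R have no such overlap.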

How the data were processed

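RNA of ribosome precipitates from testis was sequenced as single reads of 50 bases, per the labels' protocols. Tools named without a version in the submitters' processing notes are STAR, DESeq2, cutadapt and Trim Galore. Not given in the sources used here are the genome build, the annotation, the counting tool and its use of strand. The deposited table gives the authors' normalized expression for 7 of 8 libraries (a signal, here called normalized reads) and, per the file headers, the authors' log2 fold change, Wald statistic (a score, not used) and p-values. Columns of per-sample values left unused numbered 0. Of the deposited signal values, 100% were whole reads divided by 1 factor per library, at a tolerance of 1e-06, so reads were recovered. A count of 0 allows up to 3 reads, or 2.24 to 4.49 normalized reads, covering counting error only.

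The main test was limma 3.58.1 (R 4.3.3), with its mean-variance trend, run on log2(normalized reads + 1) for genes with a mean of at least 10, two-sided, Benjamini-Hochberg over 11174 genes, threshold 0.05. edgeR 4.0.16 and DESeq2 1.42.0 on recovered reads were alternatives, with other pseudocounts, filters and scalings, left-out libraries and a replicate block. Summaries used Python 3.11.15 with numpy 2.4.6 and pandas 2.3.3, and figures matplotlib 3.10.9. The limma step was tested on simulated data, at a spread estimated from these libraries and at a narrower one. Only the narrower setting had to reach a set number of calls, so the test does not show power at the real spread. Members and lists were chosen with earlier results of these data known. Values in every library are given for members with an unadjusted p under 0.05, without overlap, ending in R or their namesakes, and with the highest or lowest mean of a class. Prosalpha2, Prosbeta1, Prosbeta4, Prosbeta5 and Rpn10 were given likewise after their values were seen, as was cnc. Of the other pathway lists, genes with an unadjusted p under 0.05 and the 2 with the highest mean are named. Genes of these lists without overlap were named after their values were seen. Gene names are the table's, and all 36 members matched a table of RefSeq genes by name.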

Additional observations from a re-analysis of the deposited data

Results flagged for a closer look

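Among the 37 sets of 4 eRpL22-like values examined for a library far from the others (36 members and the 19S to 20S ratio), 2 stood out, and chance gives about 1 in 20. Prosalpha2 had 11514 normalized reads in eRpL22-like replicate 1, against 4523 to 5134 in the other eRpL22-like libraries. The read ratio of 19S to 20S genes was 0.888 in eRpL22-like replicate 3, against 1.03 to 1.05 in the others. The eRpL22 pulldown, with 3 libraries, was not examined in this way.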

How the results depend on the processing

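No setting called a member. Over all genes, limma called 0 under every pseudocount, filter, scaling, left-out library and the block, edgeR called 0, and DESeq2 on recovered reads called 172. When single libraries were left out, the median log2 fold change of all members ran from 0.03 to 0.23, that of 20S members from -0.040 to 0.22, that of the 18 genes of the 19S cap without R variants from -0.22 to 0.38, and the difference in the 19S to 20S ratio from -0.204 to 0.0216. Calls stayed at 0 to 0 in those fits. Of 576 member estimates under 16 alternatives, 556 moved by less than their SE and 20 by more. The sign was the same under all 16 for 12 members, among them Rpt5, Rpn13, Rpn6, Rpn10, Prosbeta3 and Prosbeta4. Scaling by library totals turned the sign of 2 members, Rpn7 (from -0.04 to 0.06) and Rpt3R (from -0.05 to 0.05). Deviations of same-numbered libraries correlated at 0.00303, 0.0265 and 0.00888 over 11174 genes, and those of other pairs at -0.0183 to 0.0091. These values show no strong variation shared by replicate number, and they cannot show whether libraries were prepared in pairs. With a replicate block limma called 0 genes and 0 members, and the members' median was 0.10 (0.10 for 20S, and 0.16 for 19S genes without R variants). eRpL22-like replicate 4 shares its number with no library, so the blocked estimates equal those without it. The block gave 314 genes with an unadjusted p under 0.05, against 464 without that library and no block, and 459 in all 7 libraries. Of the 36 members, 6 had intervals within 2-fold, from 3 and 4 libraries. Reads of the near-absent values (1, 9 and 4 for Rpt3, Rpt4 and Rpn12) lie near the floor of 3.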
